A study of Mus musculus with 6 samples.

Results

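The receptors for IL-23, IL-12, IL-1 and IL-18 were described in sorted gut samples labelled ILC3 (group 3 innate lymphoid cells). ILC3s are gut lymphocytes without a rearranged antigen receptor that make IL-22 and IL-17. The samples also held RNA of other cell types, as the markers below show, so the levels are those of a mixture. The 9 genes were chosen by name: Il23r, Il12rb1, Il12rb2, Il1r1, Il1r2, Il1rap, Il18r1, Il18rap and Myd88. All 9 were found among the 25075 gene symbols of the count table, and all 9 passed the filter on low counts, which left 15261 genes to test.

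IL-23 and IL-12 are sensed by receptors that share the chain encoded by Il12rb1. Il23r completes the IL-23 receptor, which signals mainly through STAT3, and Il12rb2 completes the IL-12 receptor, which signals mainly through STAT4. IL-1 and IL-18 bind Il1r1 and Il18r1, recruit the accessory chains Il1rap and Il18rap, and signal through the adaptor MyD88 and the IRAK kinases to NF-κB, while Il1r2 encodes a decoy that binds IL-1 without signalling. IL-23 and IL-1 are known as inducers of IL-22 and IL-17 in gut ILC3s, and IL-12 and IL-18 as inducers of interferon-γ in ILC1s, NK cells and ILC3s that have acquired T-bet.

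The mice had a b6 background, and the cells came from their small intestine. All animals carried the floxed Batf allele (Batf fl/fl); 3 libraries were labelled WT (PLZF-Cre-) and 3 were labelled Batf knockout (PLZF-Cre+), in which Cre is driven by the gene of the transcription factor PLZF. Each sample held 2000 Lin-CD90.2+KLRG1- cells sorted into lysis buffer, and Smart-seq2 libraries were made from 2 ng of RNA. The labels give no age, sex, litter or date. Beyond the design text's term biological replicates, nothing ties each library to a separate animal. The p-values thus measure at most the spread between these samples, which may in part be technical. Labelled Batf-deficient replicates 1 and 2 were much closer in counts than any other pair of a group. Whether they share an animal or RNA is not known, so the spread of that group may be understated.

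Totals were 9080012 to 17334207 counts in the labelled control libraries and 8228513 to 13615895 in those labelled Batf-deficient. Batf, the targeted AP-1 factor, was at 15.1, 15.3 and 18.9 CPM (each count as a share of its library, with TMM factors applied to library sizes) in the labelled control libraries and at 38.2, 41.2 and 41.2 CPM in those labelled Batf-deficient, 2.44-fold higher (log2 1.29, edgeR adjusted p = 1.70e-05), whereas on the panel scaling described below it was lower (-1.34, edgeR adjusted p = 7.03e-06). Its reads thus did not drop with the label as a share of the library, and the groups are called by their labels below; which exons the reads came from is not shown by a count per gene. The libraries also differed widely in composition. The 8 pancreatic acinar markers took 5.58% to 5.98% of counts in the labelled control libraries and at most 0.000182% in those labelled Batf-deficient, whereas a panel of 19 genes of innate lymphoid and T cells took at most 0.131% in the former and at least 0.609% in the latter. The heat shock gene Hspa1a lay between 65.0 and 83.5 CPM in the labelled control libraries and between 24481 and 25052 CPM in the others. The X-inactivation RNA Xist was at most at 1.32 CPM in the former and at least at 172 CPM in the latter. Since both Hspa1a and Xist separated the groups fully, what goes with either in the receptor levels cannot be told apart from the label. That includes the sex of the mice, which the labels do not give and on which Xist depends. In these bulk samples fewer cells of a type and less RNA per cell cannot be told apart.

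Because of this, a single gene's fold change depends on the scaling. The values given are of 3 kinds: CPM with TMM factors, counts per 1000 counts of the 19-gene panel, and the ratio of 2 receptor chains within a library. No scaling can move such a ratio. The mixture of cells can, since the 2 chains may come from different cells, and its part was not tested. The promoters of Il23r and of its neighbour Il12rb2 are shown first, since these nearby genes encode the chains that set IL-23 apart from IL-12 and their ratio moved most of the 10 pairs compared below. RefSeq promoter windows (GRCm38.p6, the build also called mm10; 250 bases before to 50 after an annotated start) were matched for 8 of the 9 genes, 11 windows in all. They were searched on both strands for the AP-1 motif TGANTCA, which BATF dimers can bind. Capitals would mark a match, and neither sequence shown holds one.
Il23r, chr6:67491806-67492105, minus strand: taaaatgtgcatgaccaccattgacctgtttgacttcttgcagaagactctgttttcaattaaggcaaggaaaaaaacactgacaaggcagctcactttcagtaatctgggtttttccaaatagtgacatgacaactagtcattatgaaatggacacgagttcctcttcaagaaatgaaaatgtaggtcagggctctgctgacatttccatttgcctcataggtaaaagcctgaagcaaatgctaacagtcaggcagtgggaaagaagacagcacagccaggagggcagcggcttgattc
Il12rb2, chr6:67376139-67376438, minus strand: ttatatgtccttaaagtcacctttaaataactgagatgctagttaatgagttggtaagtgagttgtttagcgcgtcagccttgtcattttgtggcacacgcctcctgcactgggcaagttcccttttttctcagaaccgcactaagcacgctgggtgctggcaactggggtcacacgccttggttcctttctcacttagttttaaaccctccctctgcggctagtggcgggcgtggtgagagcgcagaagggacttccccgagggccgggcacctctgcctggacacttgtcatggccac
TGANTCA was in 0 of the 11 windows, and 7.81% of 32851 promoter windows of this length held it. That describes only the letters in these windows and says nothing of binding by the factor.

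With TMM factors, 6 of the 9 receptor genes were called higher and 1 lower under the Batf-deficient label (edgeR's quasi-likelihood test, adjusted p threshold 0.05). Over all 15261 genes 30.2% were called higher and 34.1% lower, 64.4% in all. The 9 genes had a median log2 fold change of 2.08, beside 0.017 for all genes tested. For 7 of the 9 the groups were fully separated, as they were for 71.2% of all genes.

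**Figure D1:**
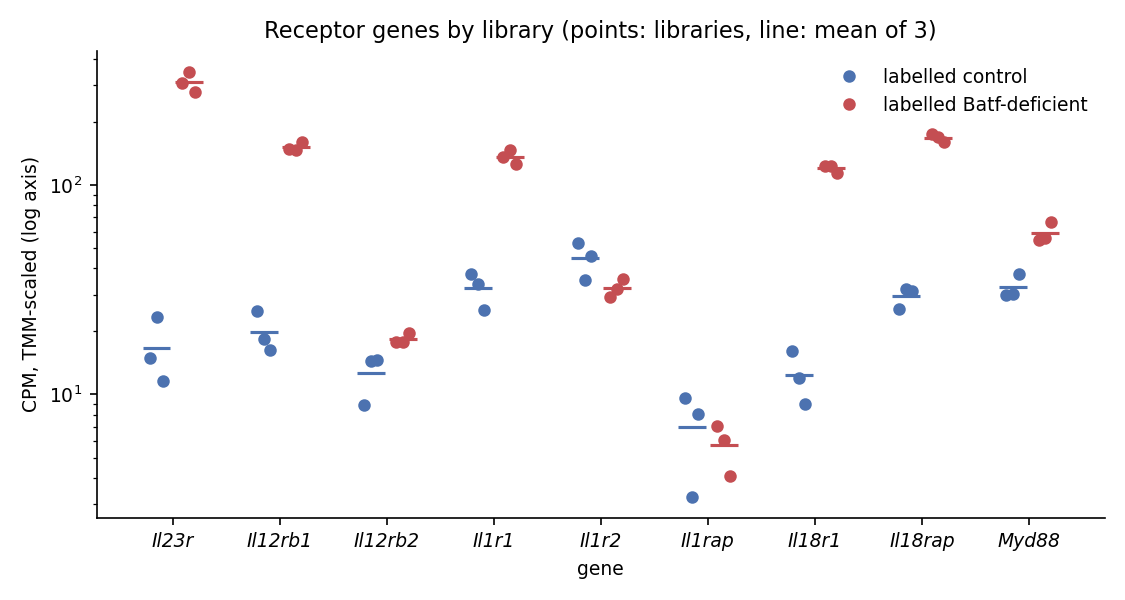
CPM on TMM-scaled library sizes (log axis) of the 9 receptor genes in each of the 3 labelled control (blue) and 3 labelled Batf-deficient (red) libraries; points are libraries and lines are means. Il23r lies between 11.6 and 23.5 CPM in the control libraries and between 278 and 347 CPM in the others, while the points of Il1r2 and of Il1rap overlap between the groups.

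Il23r (ENSMUSG00000049093.9, chromosome 6, 67422932 to 67491855, minus strand, mm10), the chain that binds IL-23, had the largest difference of the 9. It was at 14.95, 23.5 and 11.6 CPM in labelled control replicates 1 to 3 and at 308, 347 and 278 CPM in replicates 1 to 3 labelled Batf-deficient. The lowest of the latter was above the highest of the former by a wide margin, and the control libraries differed among themselves more, in proportion, than the others did. Mean levels went from 16.7 ± 6.14 to 311 ± 34.3 CPM (SD, n = 3 in each group), an 18.6-fold difference (log2 4.22, SE 0.24, edgeR adjusted p = 1.58e-07).

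Il12rb1 (chromosome 8, 70808449 to 70821424, plus strand), the chain shared by both receptors, had CPM of 25.01, 18.4 and 16.3 under the control label and of 148, 147 and 159.99 under the Batf-deficient label. Its groups stood apart by 7.68-fold (log2 2.94, SE 0.16, edgeR adjusted p = 1.06e-08). Il12rb2 (chromosome 6, 67291318 to 67376188, minus strand), the chain that completes the IL-12 receptor, was at 8.93, 14.4 and 14.6 CPM against 17.8, 17.9 and 19.7 CPM. Here too the 3 values of each group stood apart, but the difference was small and missed the threshold (log2 0.54, SE 0.23, edgeR adjusted p = 0.0536); it passed without labelled control replicate 2 (0.65, edgeR adjusted p = 0.0398) or replicate 3 (0.66, edgeR adjusted p = 0.0346) and with the replicate number as a block (0.57, edgeR adjusted p = 0.0433). It shrank without labelled control replicate 1 (0.34, edgeR adjusted p = 0.127), with library totals (0.17, edgeR adjusted p = 0.537) and with dominant and acinar genes left out of the library sizes (0.084, edgeR adjusted p = 0.766). Exons of Il12rb2 overlap those of Serbp1, an RNA-binding protein gene on the opposite strand, over up to 1419 bases. Serbp1 was at 182 ± 16.7 and 251 ± 8.83 CPM with a log2 fold change of 0.47, and without strand its reads and those of Il12rb2 cannot be told apart in the overlap.

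Among the IL-1 receptor genes, the signalling chain and the decoy differed in direction with TMM factors, while both were lower with the panel scaling given below. Il1r1 (chromosome 1, 40225080 to 40317257, plus strand) had 37.7, 33.8 and 25.3 CPM under the control label and 136, 146 and 126 CPM under the Batf-deficient label. The groups did not overlap, with a 4.23-fold difference (log2 2.08, SE 0.15, edgeR adjusted p = 1.61e-07). Il1r2 (chromosome 1, 40074079 to 40125231, plus strand), the decoy, was at 53.0, 35.2 and 46.0 CPM against 29.2, 31.7 and 35.7 CPM. Labelled control replicate 2 lay within the range of the other group, and the decrease was 1.38-fold (log2 -0.47, SE 0.17, edgeR adjusted p = 0.0288). That call ended without labelled control replicate 1 (-0.34, edgeR adjusted p = 0.101) or 3 (-0.44, edgeR adjusted p = 0.0630), without labelled Batf-deficient replicate 1 (-0.45, edgeR adjusted p = 0.0875) or 2 (-0.50, edgeR adjusted p = 0.0656), with those last 2 libraries averaged (-0.47, edgeR adjusted p = 0.0742), and by limma voom (-0.41, adjusted p = 0.0742). It was larger with library totals (-0.84) and with the dominant genes left out (-0.93).

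Il1rap (chromosome 16, 26581704 to 26730117, plus strand), the accessory chain that IL-1 signalling requires and that the IL-33 receptor also uses, was the lowest of the 9. Its CPM were 9.59, 3.25 and 8.03 in the labelled control and 7.05, 6.09 and 4.09 in the labelled Batf-deficient libraries, from 57 to 155 and 43 to 51 counts. The groups overlapped, and no difference was detectable at this depth (log2 -0.28, SE 0.42, edgeR adjusted p = 0.574), with a value of 0.0024 without labelled control replicate 1.

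Both IL-18 receptor chains were higher with TMM factors. Il18r1 (chromosome 1, 40465552 to 40500854, plus strand), which binds IL-18, was at 16.1, 11.99 and 8.96 CPM against 124, 124 and 114 CPM, a 9.88-fold difference (log2 3.30, SE 0.19, edgeR adjusted p = 1.73e-08). Il18rap (chromosome 1, 40515362 to 40551705, plus strand), its accessory chain, was at 25.7, 32.0 and 31.2 CPM against 176, 169.9 and 160.2 CPM, a 5.67-fold difference (log2 2.50, SE 0.12, edgeR adjusted p = 4.28e-09). In both genes the 2 groups stood far apart. Myd88 (chromosome 9, 119335934 to 119341411, minus strand), the adaptor of both receptors and of most Toll-like receptors, was at 29.7, 30.1 and 37.5 CPM against 54.9, 55.8 and 66.6 CPM, with no overlap (log2 0.87, SE 0.14, edgeR adjusted p = 0.000233). Its difference was 0.49 with library totals and 0.41 with the dominant genes left out, both called. Its exons overlap those of Acaa1a, a peroxisomal thiolase gene on the opposite strand, over up to 223 bases; Acaa1a was lower, at 119 ± 3.86 against 222 ± 41.4 CPM.

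The ratio of 2 chains within a library was compared next, for 10 pairs. With 3 libraries against 3 an exact two-sided permutation test cannot go below p = 0.10. Each of the 10 pairs reached that value (adjusted over the 10 pairs, 0.10), since in each the groups did not overlap. On CPM the groups were fully separated for 71.2% of all genes, and the share for ratios to these chains was not counted. Intervals and adjusted p-values below come from limma, fitted to all genes relative to the second chain, with adjustment over 15260 genes. This test was added after the data were seen. Every gene in such a fit carries the second chain's noise, which the fit counts as independent between genes. The intervals can thus be too narrow, and the p-values too small, for the spread between libraries. For Il23r over Il12rb2, the SE rose from 0.29 to 0.37 without labelled Batf-deficient replicate 1. The limma adjusted p nevertheless fell from 1.71e-12 to 1.13e-21. The share of all genes that differed relative to the same chain is given beside each.

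For the IL-23 and IL-12 receptors the ratio moved toward Il23r. There were 0.598, 1.28 and 0.71 reads of Il23r per read of Il12rb1 in the labelled control libraries and 2.08, 2.36 and 1.74 in those labelled Batf-deficient, a difference of 1.33 on the log2 scale (95% interval 0.76 to 1.89, limma adjusted p = 0.000107), where 91% of all genes differed relative to Il12rb1. Il12rb2 went the other way against the shared chain, from 0.357, 0.786 and 0.895 reads per read of Il12rb1 to 0.12, 0.122 and 0.123 (log2 difference -2.37, 95% interval -3.05 to -1.69, limma adjusted p = 8.14e-07). The 3 libraries labelled Batf-deficient were nearly equal in this ratio, while labelled control replicate 1 was well below the other 2 control libraries.

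Between the distinguishing chains themselves, Il23r reads per Il12rb2 read were 1.67, 1.62 and 0.794 in the labelled control and 17.3, 19.4 and 14.1 in the labelled Batf-deficient libraries. This was the largest difference of the 10 pairs, 12.96-fold (log2 difference 3.70, 95% interval 3.10 to 4.29, limma adjusted p = 1.71e-12), where 54.8% of all genes differed relative to Il12rb2. The genes are neighbours on chromosome 6, 46.7 kb apart and on the same strand. Reads of Serbp1 in the exon overlap given above may be among those counted for Il12rb2. That holds for this ratio and for the ratio of Il12rb2 to Il12rb1, and their part was not measured.

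For IL-1, the signalling receptor gained on both its decoy and its accessory chain. Reads of Il1r1 per read of Il1r2 went from 0.711, 0.959 and 0.55 to 4.67, 4.61 and 3.52, a 5.86-fold difference (log2 difference 2.55, 95% interval 2.04 to 3.06, limma adjusted p = 1.78e-08), where 65% of all genes differed relative to Il1r2. The decoy thus had more reads than the signalling chain in each of the 3 labelled control libraries and fewer in each of the others. Reads of Il1r1 per read of Il1rap were 3.93, 10.4 and 3.15 against 19.3, 24 and 30.7 (log2 difference 2.26, 95% interval 1.06 to 3.45, limma adjusted p = 0.00112), where 34.8% of all genes differed; labelled control replicate 2, with 57 counts of Il1rap, was above the other control libraries.

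The IL-18 chains stayed closer to each other. Reads of Il18r1 per read of Il18rap were 0.626, 0.375 and 0.287 in the labelled control and 0.704, 0.727 and 0.711 in the labelled Batf-deficient libraries, the smallest difference of the 10 pairs (log2 difference 0.81, 95% interval 0.28 to 1.34, limma adjusted p = 0.00714), where 88.8% of all genes differed relative to Il18rap. Without labelled control replicate 1 the difference was 1.12, and without replicate 3 of that group it was 0.56.

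Across receptor families, Il1r1 lost ground to both Il18r1 and Il23r. Its ratio to Il18r1 went from 2.35, 2.82 and 2.83 to 1.10, 1.18 and 1.105 (log2 difference -1.23, 95% interval -1.82 to -0.64, limma adjusted p = 0.000153), where 92.8% of all genes differed relative to Il18r1. The ratio of Il23r to Il1r1 went from 0.397, 0.694 and 0.456 to 2.26, 2.37 and 2.21 (log2 difference 2.19, 95% interval 1.68 to 2.69, limma adjusted p = 2.71e-07), where 83.1% of all genes differed relative to Il1r1. Both ligand-binding chains gained on the adaptor: relative to Myd88 the log2 difference was 1.22 for Il1r1 (95% interval 0.71 to 1.73, limma adjusted p = 0.000618) and 2.45 for Il18r1 (95% interval 1.87 to 3.04, limma adjusted p = 6.94e-06), where 64.2% of all genes differed.

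**Figure D2:**
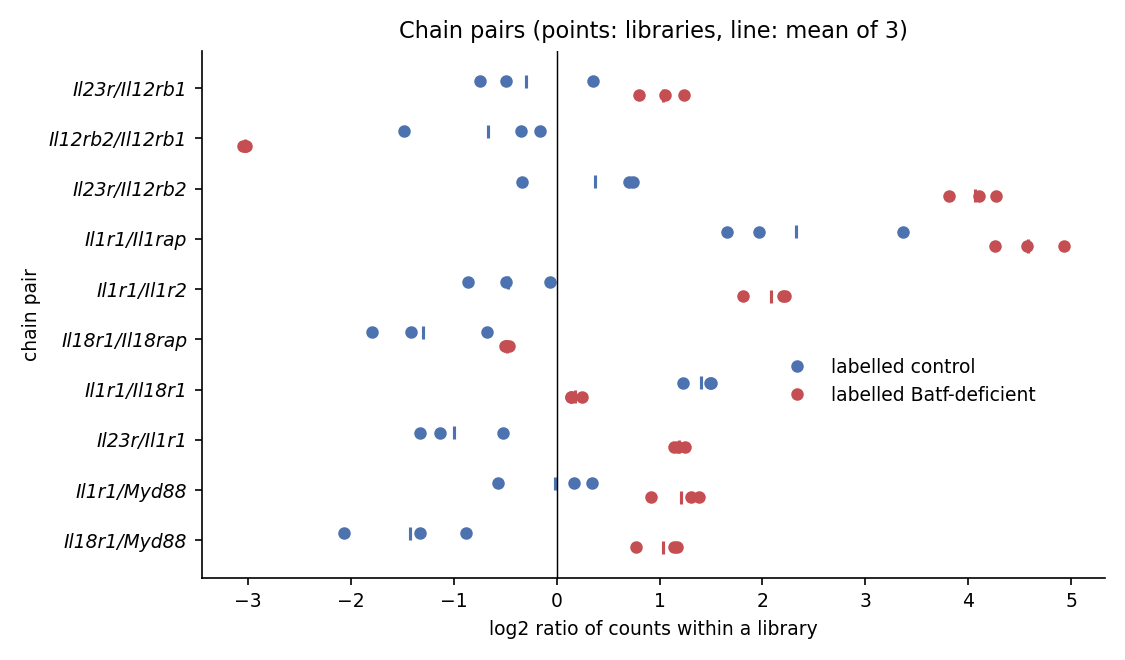
Log2 ratio of the counts of 2 chains within each library for 10 pairs (first gene over second); points are the 3 labelled control (blue) and 3 labelled Batf-deficient (red) libraries and lines are means. The groups do not overlap in any pair, and Il23r/Il12rb2 moves furthest, from a mean of 0.37 to 4.06. On CPM, a different measure, the groups are fully separated for 71.2% of all genes. The share for ratios to these chains was not counted.

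Set against genes of innate lymphoid and T cells, most of the increases were no longer seen. Per 1000 counts of the 19-gene panel, Il23r had 13.3, 21.3 and 10.1 counts in the labelled control and 43.2, 48.8 and 41.7 in the labelled Batf-deficient libraries, and stayed higher (log2 fold change 1.58, edgeR adjusted p = 1.59e-05). Il18r1 had 14.3, 10.9 and 7.84 against 17.4, 17.4 and 17.1 and also stayed higher (0.66, edgeR adjusted p = 0.00627). With this scaling 1.56% of all genes were called higher and 89% lower, and 2 of the 9 receptor genes were called higher. Of the 19 panel genes 18 were themselves higher with TMM factors. Scaling on them moves most other genes down, so these shares follow in part from the choice of panel.

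The shared chain Il12rb1, with 22.3, 16.7 and 14.2 against 20.8, 20.7 and 23.96 per 1000 panel counts, and the accessory chain Il18rap, with 22.9, 29.0 and 27.3 against 24.6, 23.9 and 23.98, overlapped between the groups and were not called (0.31 and -0.13, edgeR adjusted p = 0.103 and 0.366). The other 5 were lower. Il1r2 had the largest decrease, from 47.3, 31.9 and 40.3 to 4.09, 4.47 and 5.35 per 1000 panel counts (log2 fold change -3.09, edgeR adjusted p = 7.42e-10). Il1rap followed at -2.91, Il12rb2 at -2.09 and Myd88 at -1.76, with edgeR adjusted p between 1.16e-07 and 1.41e-05, and Il1r1 at -0.56 (edgeR adjusted p = 0.00458). The sign of the log2 fold change of Il1r1, Il12rb2, Il18rap and Myd88 thus turned with the scaling. Of these, Il18rap was not called with the panel and Il12rb2 was not called with TMM factors. Il23r, Il12rb1 and Il18r1 stayed above 0 and Il1r2 and Il1rap below 0 under both. The median of all genes was at -2.61 with the panel. Scaling on 5 ILC3 markers (of which Il7r and Thy1 are also in the panel, and Il23r and Il22 were left out; chosen after seeing the data) gave the same 2 higher and the same 5 lower receptor genes.

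**Figure D3:**
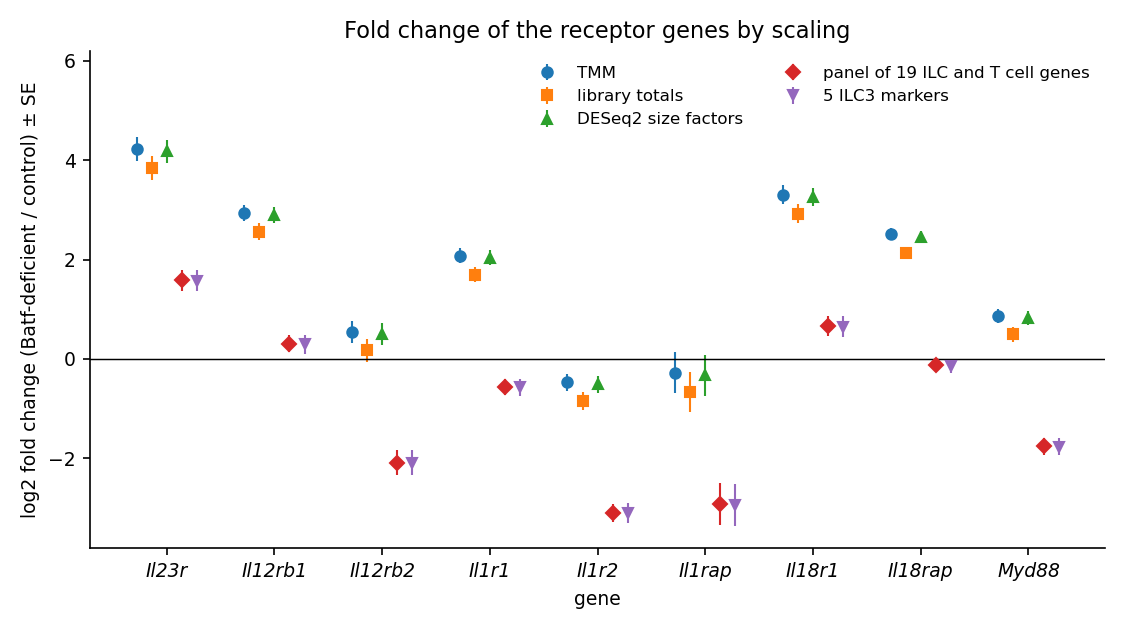
Log2 fold change (labelled Batf-deficient over labelled control, ± SE of the edgeR fit, 3 libraries a group) of each receptor gene under 5 scalings. Il23r stays above 0 under each, from 1.58 with the panel and with the ILC3 markers to 4.22 with TMM factors, whereas Myd88 goes from 0.87 to -1.76.

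The order of the levels within a group was compared per length of annotated exon (CPM on TMM-scaled library sizes, divided by the kilobases in the union of exons). In the labelled control libraries the decoy Il1r2 was highest at 23.5 ± 4.70, above Myd88 at 12.6 ± 1.70 (SD, n = 3), and these 2 did not overlap. Il23r (6.69 ± 2.47), Il1r1 (5.07 ± 0.99), Il12rb1 (4.84 ± 1.11), Il18rap (4.39 ± 0.51), Il12rb2 (3.33 ± 0.85) and Il18r1 (2.56 ± 0.74) followed, each overlapping its neighbour in the order. Il1rap was lowest at 0.612 ± 0.29.

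In the libraries labelled Batf-deficient Il23r was highest at 125 ± 13.8, clear of Il12rb1 at 36.9 ± 1.78. Il18r1 (24.996 ± 1.17), Il18rap (24.97 ± 1.16), Myd88 (22.9 ± 2.52) and Il1r1 (21.4 ± 1.60) formed a group in which neighbours overlapped. Il1r2 (16.9 ± 1.73), Il12rb2 (4.87 ± 0.29) and Il1rap (0.506 ± 0.133) came last, each apart from the next. With the longest transcript in place of the union of exons, 5 of 9 genes kept their rank in the labelled control group and 7 of 9 in the other, and the highest and the lowest gene were the same.

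**Figure D4:**
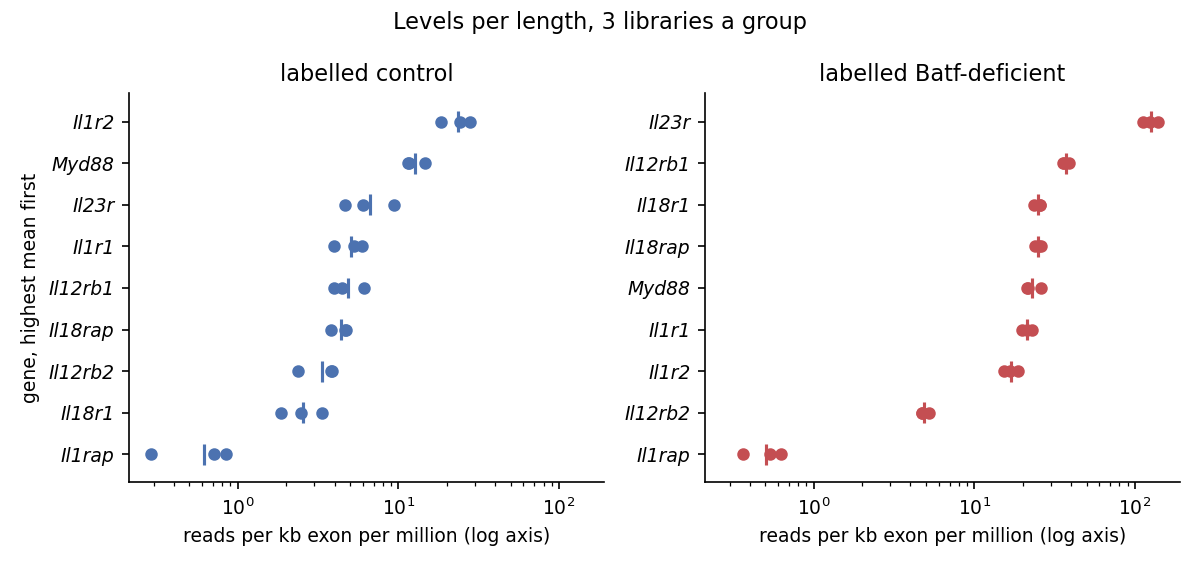
TMM-scaled CPM per kilobase of exon (log axis) of the 9 genes, ordered by their mean within the labelled control libraries (left) and within the labelled Batf-deficient libraries (right); points are 3 libraries and lines are means. Il1r2 leads on the left and Il23r on the right, and Il1rap is last in both.

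Of the 9 genes, Il1r2, Il1r1, Il18r1 and Il18rap lie in a cluster of IL-1 receptor family genes on chromosome 1 that spans 477.6 kb (40074079 to 40551705, mm10). Its other 2 members are Il1rl2, the IL-36 receptor, and Il1rl1, the IL-33 receptor. From Il1r2 at one end to Il18rap at the other, the log2 fold changes with TMM factors were -0.47, 2.08, 0.71, 3.29, 3.30 and 2.50. Il1rl1, which ends 136 bases before Il18r1 begins, rested on few reads (3 to 15 counts in the labelled control and 41 to 74 in the labelled Batf-deficient libraries), and Il1rl2 did not pass the test (edgeR adjusted p = 0.0833). The decoy Il1r2 and the signalling receptor Il1r1 are 99.8 kb apart.

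**Figure D5:**
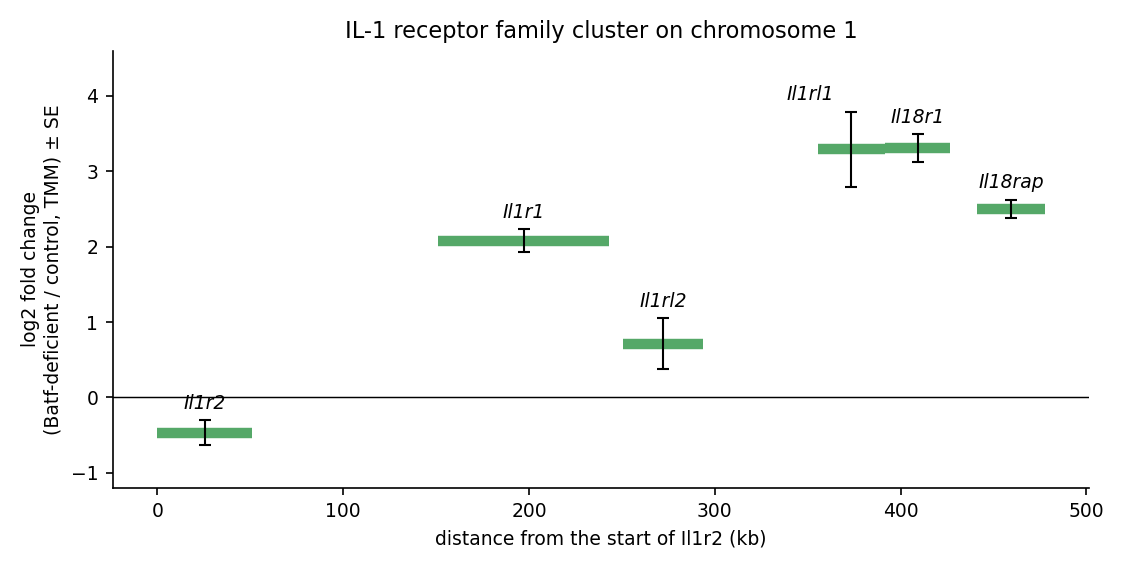
Log2 fold change (labelled Batf-deficient over labelled control, TMM factors) of the 6 genes of the IL-1 receptor family cluster, drawn as horizontal segments that span each gene, in kb from the start of Il1r2; error bars are the SE of the edgeR fit. Il1r2 is below 0 at -0.47, and Il1rl1 and Il18r1 are highest at 3.29 and 3.30.

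Ligands and their antagonists were mostly lower under the Batf-deficient label. Of 9 genes of ligands, antagonists and processing, 8 were in the table and 6 were tested, of which 5 were lower and 1 higher (median -3.46, beside 0.017 for all genes, of which 34.1% were lower). Il1rn, the IL-1 receptor antagonist, went from 44.3 ± 8.50 to 2.12 ± 0.135 CPM (SD, n = 3 each; log2 fold change -4.39, edgeR adjusted p = 9.31e-09). Il1b and Il1a, which encode IL-1β and IL-1α, fell by 3.06 and 4.11 on the log2 scale, and Il18 fell by 3.85, from 10.1 ± 1.61 to 0.669 ± 0.237 CPM. The exception, named after its value was seen, was Il18bp, the secreted IL-18 antagonist, which had 6.74 ± 3.13 and 17.9 ± 2.26 CPM with TMM factors. Il23a, which encodes the IL-23-specific subunit, had 2 counts in all 6 libraries together, and Il12b, the subunit shared by IL-12 and IL-23, had 0, 17 and 11 counts in the labelled control and 0, 1 and 0 in the labelled Batf-deficient libraries.

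Most markers of non-lymphoid cells and of B and plasma cells were also lower with TMM factors, where 30.2% of all genes were higher and 34.1% lower. Of 9 markers of macrophages and dendritic cells, 8 were lower under the Batf-deficient label and none was higher, with summed levels of 521 to 548 CPM against 40.2 to 47.7 CPM. Of 8 epithelial markers 7 were lower (7157 to 7730 CPM against 233 to 261 CPM), and of 6 stromal markers 6 were lower (875 to 897 CPM against 36.5 to 38.7 CPM). Of 5 endothelial markers 4 were lower and 1 higher (199 to 219 CPM against 86.6 to 103 CPM), and of 6 B and plasma cell markers 5 were lower (8356 to 8688 CPM against 555 to 585 CPM). No marker of these 5 lists was at 0 in all 3 libraries of a group. Of 6 neutrophil and mast cell markers 4 were tested, 1 lower and 1 higher (10.2 to 12.0 CPM against 7.87 to 12.7 CPM), with Mcpt1 at 0 in all 3 libraries labelled Batf-deficient. The part of these cells in the levels of Il1r2, Il1rap, Il1r1, Myd88 and the ligands was not tested.

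Markers of ILC3s, T cells, NK cells and ILC1s were mostly higher and those of ILC2s were mixed. The same shares of all genes, 30.2% higher and 34.1% lower, stand beside these counts. All 7 ILC3 markers, Il23r itself among them, were higher in the libraries labelled Batf-deficient with TMM factors (955 to 1052 CPM against 7588 to 8449 CPM). Of 7 γδ T cell markers, 3 of which were matched through RefSeq synonyms (GRCm38.p6), 6 were higher and 1 lower (108 to 128 CPM against 830.5 to 844 CPM). Of 7 αβ T cell markers 4 were higher and 1 lower (217 to 249 CPM against 1322 to 1361 CPM). Of 6 NK cell and ILC1 markers 5 were tested, 3 higher and 1 lower (142 to 168 CPM against 493 to 518 CPM). Of 7 ILC2 markers, a list that includes Il1rl1, 6 were tested, 3 higher and 2 lower, and their summed level was lower (545 to 605 CPM against 345 to 356 CPM). No marker of these lists was at 0 in all 3 libraries of a group, and the part of γδ T cells, which also use Il23r and Il1r1, or of NK cells and ILC1s, which use Il12rb2 and the IL-18 receptor, was not tested.

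Among related receptors and regulators, Il1rl1 and Sigirr, an inhibitor of IL-1 family receptors, were higher with log2 fold changes of 3.29 and 0.81 (edgeR adjusted p = 0.000106 and 0.000730), and the other 2 of the 4 were not called. With panel scaling Il1rl1 lost its call (0.68, edgeR adjusted p = 0.256) and Sigirr was at -1.83. Of 15 signalling genes 8 were higher, 5 were not called and 2 were lower, which were Irak1 and Map3k7, both kinase genes of the IL-1 pathway, named after their values were seen (median 0.64, beside 0.017 for all genes, of which 30.2% were higher and 34.1% lower). Irak3, an IRAK family member known to restrain MyD88 signalling, was at 4.397 ± 0.146 against 58.9 ± 1.95 CPM, the largest difference of the 15 (log2 fold change 3.74, edgeR adjusted p = 1.08e-09), and stayed higher with panel scaling (1.11, edgeR adjusted p = 0.000285). Irak2, a kinase of the MyD88 complex, had 1.66 with TMM factors and -0.97 with the panel. Stat3, downstream of IL-23, was at 214 ± 5.32 against 676 ± 7.30 CPM (1.66, and -0.98 with the panel), and Stat4, downstream of IL-12, at 79.9 ± 11.4 against 279 ± 10.7 CPM (1.80, and -0.84 with the panel).

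All 6 genes taken as response genes of these receptors in ILC3s were higher with TMM factors (median 3.20), as were 30.2% of all genes. The cytokine genes Il17a and Il22 had log2 fold changes of 5.04 and 3.19 (edgeR adjusted p = 5.50e-11 and 6.73e-11) and stayed higher with the panel, at 2.41 and 0.55. Nfkbiz, an NF-κB cofactor induced by IL-1, and Il17f had 2.21 and 2.09, which the panel turned to -0.42 and -0.54. Over the 31 tested genes of these pathways other than the 9 receptor genes, 17 were called higher and 7 lower with TMM factors, where 30.2% of all genes were higher and 34.1% lower. With the panel 4 were higher and 25 lower, where 1.56% of all genes were higher and 89% lower.

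The genes most like each receptor gene were taken as those with the smallest root mean square difference of centred log2 CPM over the 6 libraries, among 8704 genes without placeholder names and with mean log2 CPM not under 3. For Il23r these were Tbx21, which encodes T-bet (0.25), Susd2 (0.27) and H2-Q7, one of several near-identical histocompatibility genes whose reads may be shared (0.28). For Il12rb1 they were Cd160 (0.072), Capg (0.084) and Trgc1, one of the γδ T cell markers (0.0998), for Il18r1 Bicd1 (0.11), Itgb7 (0.113) and Cysltr2 (0.16), and for Il1r1 Camk4 (0.074), Elovl5 (0.084) and Dpy19l3 (0.094). Il18rap was nearest to Ppp1r3b (0.058), Cnbp (0.077) and Snx18 (0.0798), and Myd88 to Sdf4 (0.039), Hmox2 (0.039) and the ribosomal protein gene Rpl18 (0.040). Il12rb2 was nearest to Sec14l1 (0.055), Stk19 (0.071) and Antkmt (0.083), Il1r2 to Capn1 (0.063), Cacna1g (0.068) and Mrpl46 (0.078), and Il1rap to Dbt (0.18), Piga (0.22) and Pelp1 (0.23). No receptor gene had another of the 9 among its nearest 3. With 2 groups of 3 libraries this likeness rests mostly on the difference between the groups.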

How the data were processed

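RNA of 6 Smart-seq2 libraries was measured, and the authors deposited raw, whole-number counts for each gene symbol. Per the submitters' processing notes the genome was mm10, while aligner, counter, annotation and strand were not given in the sources used here. Without molecular identifiers a count is a read and not a molecule. The comparison used edgeR 4.0.16 under R 4.3.3 (filterByExpr with a minimum count of 10, TMM factors, glmQLFit with robust=TRUE, glmQLFTest, two-sided, group as the only term), with Benjamini-Hochberg adjustment over all genes tested and a threshold of 0.05; the code was tested on simulated data. DESeq2 1.42.0 and limma 3.58.1 gave alternatives, and limma also the test of chain ratios, on log2 counts with a prior of 0.5. Exon lengths and coordinates are from GENCODE M21 (mm10), promoters from RefSeq. The receptor genes and all lists, the panel included, were chosen with earlier results of these data known. The rule for named genes took the 9 receptor genes, Batf, in each role of the pathway up to 4 called genes with the lowest p, Il23a, Il12b, Il1b, Il18, Stat3 and Stat4 whatever their values, and the 3 genes most like each receptor gene. Outside it and chosen after values were seen are Xist, Hspa1a, Il18bp, Irak1, Map3k7 and Mcpt1; Serbp1 and Acaa1a are named for their overlap, and Il1rl2 for its place in the cluster. A chi-square between the counts of libraries in a group served to find repeats: labelled Batf-deficient replicates 1 and 2 differed by 2.36 per gene, where 1 is sampling noise, and other pairs of a group by 14.8 to 24.2. This is still above sampling noise, but that does not exclude a shared animal or shared RNA, which the counts cannot show. The design text calls them biological replicates, so both stayed in as samples, and were also averaged to see what changed. Further alternatives were other scalings and tests, no filter, each library left out, a replicate block, other priors in the ratios and another gene length.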

Additional observations from a re-analysis of the deposited data

How the results depend on the processing

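The alternatives bore on the receptor genes mainly through the scaling. With TMM factors 4612 genes were called higher and 5209 lower; with library totals 3052 were higher, and with 55 dominant or acinar genes left out of the library sizes (chosen after seeing the data) 2753 were higher and 11 other pathway genes lower. With the 19-gene panel 238 genes were higher and 13584 lower, of the receptor genes 2 and 5, and of the other pathway genes 4 and 25. With the 5 ILC3 markers (chosen after seeing the data) these were 229 and 13591, 2 and 5, and 4 and 25. The median of all genes was at -0.36 with library totals, -0.45 without the dominant genes and -2.61 and -2.62 with the panel and the markers. Signs of the log2 fold change that the panel and the markers reversed were those of Il12rb2 (-2.09 and -2.08), Il1r1 (-0.56 and -0.57), Il18rap (-0.13 and -0.13), Myd88 (-1.76 and -1.76), Batf (-1.34 and -1.35), Sigirr (-1.83 and -1.84), Irak2 (-0.97 and -0.99), Stat3 (-0.98 and -0.99), Stat4 (-0.84 and -0.84), Nfkbiz (-0.42 and -0.43) and Il17f (-0.54 and -0.56). Il18rap was not called with the panel or the markers, and Il12rb2 was not called with TMM factors.

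Receptor genes called lower numbered 0 by limma voom and 0 with the averaged pair of libraries, and 0 to 1 with each library left out in turn, since the call of Il1r2 ended. At an unadjusted p under 0.05 the count was 0 by limma voom and 1 with the averaged pair. With a library left out Il1rap ranged from -0.62 to 0.0024, the latter without labelled control replicate 1. All 100 alternatives of the chain ratios kept their direction. Since the groups did not overlap in any pair, leaving out a library could not have reversed it. The replicate block leaves the mean difference as it is. All 80 of the limma fits of these ratios kept their call, within the limit given above for their p-values. Their highest limma adjusted p was 0.0470, for Il1r1 over Il1rap without labelled control replicate 3. With the longest transcript as gene length 5 of 9 control ranks were kept. With the replicate block 4603 genes were higher and 5091 lower, and it changed no call of a receptor gene but that of Il12rb2. Deviations of same-numbered libraries correlated at 0.055, 0.071 and 0.112 over 9056 genes, so the numbers were not used as pairs; each labelled Batf-deficient library correlated best with its own number except replicate 1. Depth limits Il1rap, Il23a and Il12b, at no more than 155 counts a library. The causes were not tested.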
